A study of Rattus norvegicus with 9 samples.

Results

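The phase I drug metabolism genes are the enzymes that first oxidise, reduce or hydrolyse drugs, toxins and many internal compounds. They were taken by symbol from the 15565 genes held in both expression tables of a rat liver RNA-seq study. Members were cytochrome P450 genes of families Cyp1, Cyp2 and Cyp3 without Cyp2c12, flavin monooxygenases (Fmo), carboxylesterases (Ces), alcohol dehydrogenases (Adh), aldehyde dehydrogenases (Aldh), Por and Ephx1. A member had at least 10 reads in 3 or more of the 9 libraries, and names of pseudogenes were left out. Of 67 symbols, 61 met the read minimum, and all 61 passed the later filter on low counts. They were 2 Cyp1, 19 Cyp2, 4 Cyp3, 5 Fmo, 10 Ces, 3 Adh and 16 Aldh genes, with Por and Ephx1. Adh6a, Aldh3a1, Cyp1b1, Cyp2b12, Cyp2b21 and Cyp2c24 fell short of the minimum. Nearest to it, Cyp2c24 had at least 10 reads in 2 libraries, with 0 to 27 reads a library, and the member Ces2e had at least 10 reads in 5 libraries, with 0 to 842 reads.

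Most phase I enzymes sit in the smooth endoplasmic reticulum of hepatocytes. P450 enzymes insert oxygen into their substrates with electrons that the reductase Por delivers, flavin monooxygenases oxidise nitrogen and sulfur, carboxylesterases split esters and amides, and Ephx1 opens the reactive epoxides that P450 enzymes can leave behind. Alcohol dehydrogenases turn alcohols into aldehydes, which aldehyde dehydrogenases oxidise to acids. Many P450 genes are switched on by receptors that sense foreign compounds, among them AhR for Cyp1 genes and PXR and CAR for Cyp2b and Cyp3a genes, and several rat Cyp2c and Cyp3a genes differ between males and females. Many of these enzymes are most abundant in the hepatocytes around the central vein.

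The study sequenced RNA from the livers of male SD rats, as 3 groups with 3 libraries each. SCL livers came from rats given Smilax china L., a plant that the labels shorten to SCL, and are labelled as fatty liver. The labels do not give the diet, dose or duration of that treatment, and the design text calls the third group SCS. High-fat diet livers came from rats fed a high-fat diet for 8 weeks as a model of non-alcoholic fatty liver, and normal diet livers from rats on a normal diet. Total depth was 12413774 to 14298140 reads in SCL libraries, 12842031 to 15521648 in high-fat diet libraries and 13846073 to 15204882 in normal diet libraries. The share of reads from the 13 mitochondrial transcripts differed widely and is given with the results it touches: it was 11.0, 49.0 and 7.04% in SCL replicates 1, 2 and 3, 4.90, 18.8 and 44.1% in high-fat diet replicates 1, 2 and 3 and 4.63, 3.85 and 11.2% in normal diet replicates 1, 2 and 3. SCL replicate 2 and high-fat diet replicate 3 stand apart with more than 40% of their reads. The summed level of 10 hepatocyte markers, albumin among them, was 87472 to 257611 CPM (counts scaled to depth) in SCL livers, 83843 to 170565 CPM in high-fat diet livers and 173282 to 212921 CPM in normal diet livers, and none of the 10 was at 0, so every library held liver RNA. The labels number the libraries but name no animals, so the p-values rest on the spread from library to library, part of which may be technical. In bulk liver, fewer cells of a type and less RNA per cell cannot be told apart. Reads of near-identical genes, as in the Cyp2c, Cyp2d, Cyp3a and Ces2 groups, may have been split between copies in the counting, so levels of single genes there are uncertain.

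The Cyp3a genes hold Cyp3a2, whose level spread widely over libraries. They also hold Cyp3a23/3a1, which was higher in every SCL and high-fat diet library than in any normal diet library. Promoters of Cyp3a genes are therefore shown side by side. RefSeq places Cyp3a2 and Cyp3a23/3a1 (Cyp3a23-3a1 in RefSeq) on the minus strand of chromosome 12 of assembly GRCr8, with the 250 bases before their starts at chr12:14343858-14344107 and chr12:14398804-14399053. Those of Cyp3a18, on the plus strand, lie at chr12:13994062-13994311. Capitals mark a match, read on the opposite strand, to a repeat of AGTTCA with a gap of 3 bases (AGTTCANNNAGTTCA), the kind of element known to bind PXR with its partner RXR in rat Cyp3a promoters.
Cyp3a2: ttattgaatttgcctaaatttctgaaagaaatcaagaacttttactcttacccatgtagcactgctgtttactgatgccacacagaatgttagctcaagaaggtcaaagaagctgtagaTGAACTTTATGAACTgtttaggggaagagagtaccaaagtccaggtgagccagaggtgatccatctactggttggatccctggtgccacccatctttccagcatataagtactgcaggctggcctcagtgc
Cyp3a23/3a1: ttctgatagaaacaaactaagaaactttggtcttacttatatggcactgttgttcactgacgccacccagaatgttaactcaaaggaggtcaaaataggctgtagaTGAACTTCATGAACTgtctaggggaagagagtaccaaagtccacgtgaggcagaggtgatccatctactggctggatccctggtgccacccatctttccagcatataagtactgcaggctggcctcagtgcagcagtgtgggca
Cyp3a18: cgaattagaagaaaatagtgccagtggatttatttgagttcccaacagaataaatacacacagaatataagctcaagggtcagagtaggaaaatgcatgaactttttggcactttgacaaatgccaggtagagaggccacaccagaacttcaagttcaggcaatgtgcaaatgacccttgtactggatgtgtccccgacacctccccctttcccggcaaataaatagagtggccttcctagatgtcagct
The match lies at -131 to -117 in Cyp3a2 and at -144 to -130 in Cyp3a23/3a1, and the Cyp3a18 window holds none. On both strands, 2 of 27457 promoter windows of this length (0.00728%) held the repeat, and these 2 were the only ones among 54 members with a window. The shorter CAAAGTCCA, which does not overlap the repeat, was found in 103 windows (0.375%), again with Cyp3a2 and Cyp3a23/3a1 as the members. The Cyp3a2 and Cyp3a23/3a1 windows were identical at 210 of 265 aligned columns (79.2%), against 56.2% for Cyp3a2 and Cyp3a18 and 58.0% for Cyp3a23/3a1 and Cyp3a18. The core AhR element GCGTG lay in 14 of 54 member windows, against 31.1% of all windows, and the TATA box letters TATAAA in 9 of 54, against 14.3%. A match is a sequence description and not evidence of binding in these livers.

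Levels of different genes were compared by FPKM (fragments per kilobase of gene length, scaled to depth), as deposited, where the depth includes the mitochondrial reads. The ethanol-oxidising Cyp2e1 had the highest mean over the 9 libraries, 1226 FPKM. Its level was 1702, 1119 and 1686 FPKM in SCL livers, 1522, 1048 and 808 FPKM in high-fat diet livers and 952, 1052 and 1148 FPKM in normal diet livers. Next came the male-specific Cyp2c13 (938 FPKM), the debrisoquine hydroxylase Cyp2d2 (805 FPKM), Cyp2c23, which makes epoxides of arachidonic acid (786 FPKM), the mitochondrial acetaldehyde dehydrogenase Aldh2 (759.9 FPKM) and the male-predominant Cyp3a2 (726 FPKM). Their ranges over the libraries overlapped. The order of these neighbours is that of their means alone, and whether it held within each library was not tested. Cyp2c11, the main male-specific P450 of rat liver, averaged 717 FPKM, Cyp3a23/3a1 611 FPKM, Ephx1 465 FPKM, the ethanol dehydrogenase Adh1 446 FPKM and Ces1f 416 FPKM. The higher of the 2 Cyp1 genes, Cyp1a2, averaged 209 FPKM. At the low end, Cyp1a1, the AhR target that livers without an inducer hardly express, averaged 0.701 FPKM, Aldh1a2 0.490 FPKM and Ces2c 0.141 FPKM.

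**Figure D1:**
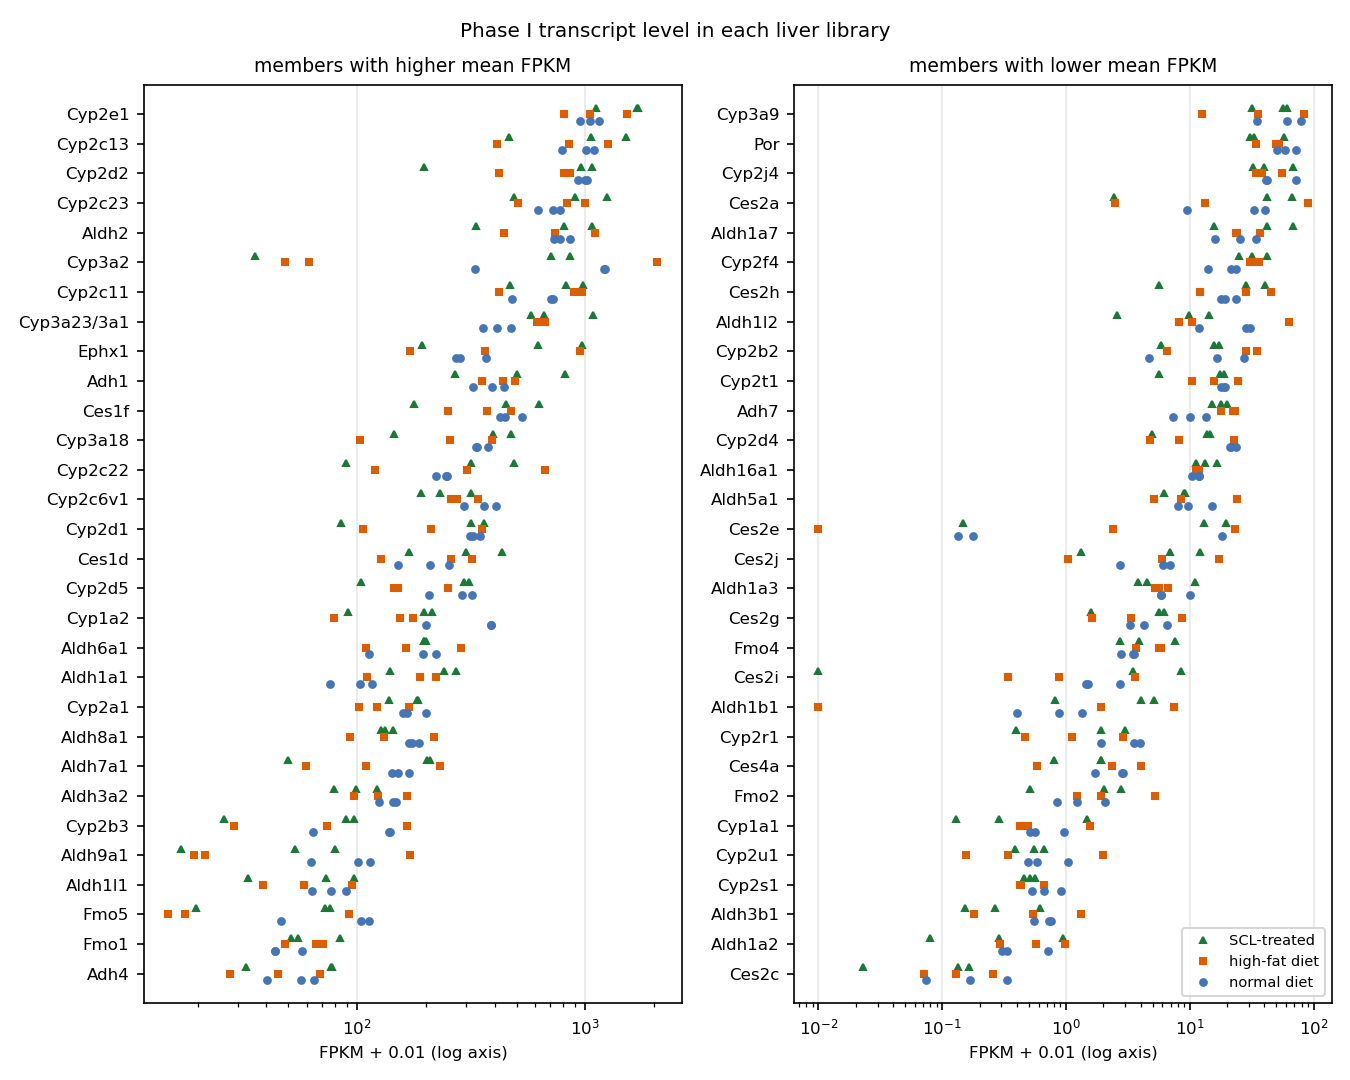
Level of 60 of the 61 members in FPKM plus 0.01 (log axis), ordered by the mean over 9 libraries; each point is 1 library, with SCL livers above, high-fat diet livers in the middle and normal diet livers below in each row. Cyp2e1 stands at the top with points between 808 and 1702 FPKM, and Cyp3a2 and several Ces2 genes scatter widely.

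Together the 61 members took 3.39, 1.67 and 3.63% of all reads in SCL replicates 1, 2 and 3, 3.53, 2.56 and 1.76% in those of the high-fat diet and 2.67, 2.76 and 2.77% in those of the normal diet. The lowest shares were those of the 2 libraries with most mitochondrial reads. Of the reads outside mitochondrial transcripts, the members took 3.81, 3.28 and 3.90% in SCL livers, 3.71, 3.15 and 3.16% in high-fat diet livers and 2.80, 2.87 and 3.11% in normal diet livers. The means were 3.66 ± 0.335% in SCL livers, 3.34 ± 0.322% in high-fat diet livers and 2.93 ± 0.163% in normal diet livers (SD, n = 3 each). On that base the lowest SCL and the lowest high-fat diet share both lay above the highest normal diet share. The 95% Wilson intervals were 3.27 to 3.30% for the lowest SCL share, 3.14 to 3.16% for the lowest high-fat diet share and 3.10 to 3.12% for the highest normal diet share, and they cover counting error only. No test was made of a sum over the members. The Cyp2 genes took the largest part, 1.73, 1.57 and 1.90% in SCL livers, 1.67, 1.54 and 1.47% in high-fat diet livers and 1.34, 1.34 and 1.60% in normal diet livers, and all 3 groups overlapped in this family.

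**Figure D2:**
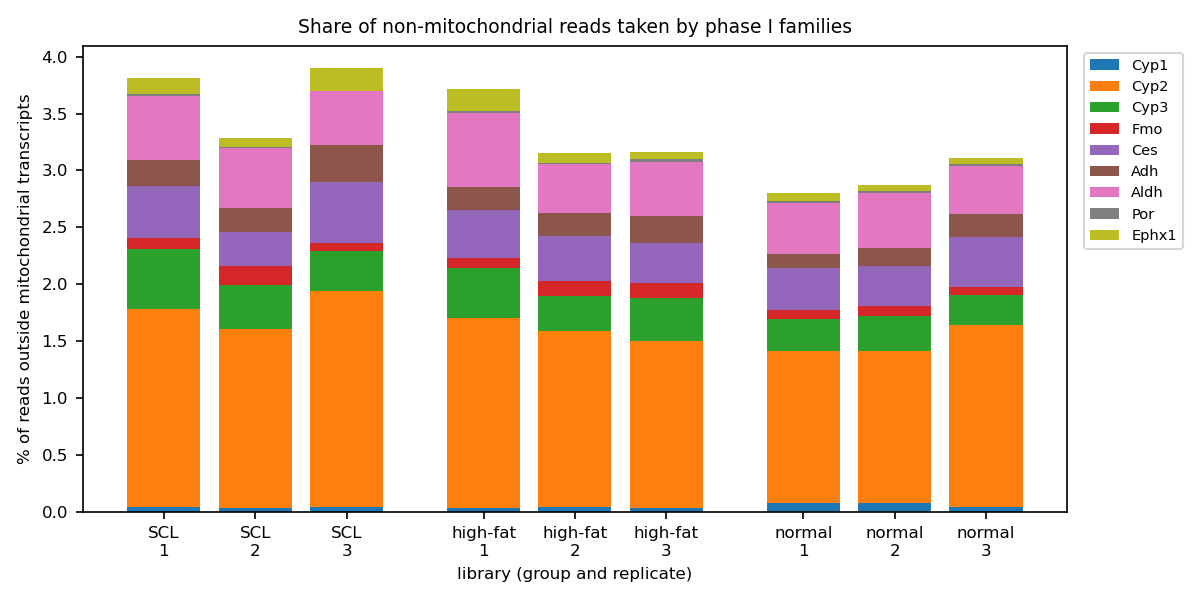
Share of the reads outside mitochondrial transcripts taken by each phase I family (stacked bars, percent, not corrected for gene length), 1 bar per library. Bars of SCL and high-fat diet livers reach 3.15% or more, and those of normal diet livers reach at most 3.11%.

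The comparison of high-fat with normal diet livers asks what the diet did to the phase I genes. None of the 61 members passed the threshold of an adjusted p under 0.05 in edgeR, where 1 of 12041 genes did (0.0083%; Tm7sf2, a sterol reductase gene), and the lowest adjusted p of a member was 0.766. At an unadjusted p under 0.05, 3 members had a higher estimate (2.77% of all genes) and 1 a lower one (1.55% of all genes), in all 6.56% of members against 4.32% of all genes. DESeq2 and limma-voom also called 0 members, where they called 0.415% and 0.216% of genes, and at an unadjusted p under 0.05 they held 5 and 14 members, where they held 5.9% and 30.0% of genes. Groups did not overlap for 11 of 61 members (18.0%, against 10.6% of all genes), with 6 higher (5.33% of all genes) and 5 lower (5.27% of all genes) on the high-fat diet. Beside Adh7, Aldh1a1, Cyp2f4 and Cyp3a23/3a1, the flavin monooxygenase genes Fmo1 and Fmo4 were higher in all high-fat diet libraries, and Cyp1a2, Cyp2a1, Cyp2d1, Cyp2d2 and Cyp2d4 were lower in all of them.

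Adh7, a dehydrogenase that acts on retinol, had 29.2, 49.2 and 50.7 CPM in high-fat diet livers and 13.6, 24.0 and 20.3 CPM in normal diet livers. Every high-fat diet library was above every normal diet library, with a log2 fold change of 1.16 (SE 0.31), an unadjusted p of 0.0032 and an edgeR adjusted p of 0.766. Aldh1a1, which oxidises retinaldehyde, had 396, 258 and 462 CPM against 153, 198 and 256 CPM in normal diet livers. Its lowest high-fat diet library exceeded the highest normal diet library by little, and its log2 fold change was 0.88 (SE 0.35) with an unadjusted p of 0.028 and an edgeR adjusted p of 0.911. Cyp2f4, a relative of the lung P450 that activates naphthalene in mouse, stood at 0.84 (SE 0.34) on the log2 scale, and Cyp3a23/3a1, which glucocorticoids and PXR ligands induce, at 0.75 (SE 0.35). Neither of these group pairs overlapped, yet both edgeR adjusted p-values were 0.911. The largest estimate of all members was that of Aldh1b1 (1.76), whose groups overlapped. Aldh1b1 had 252, 56 and 0 reads in high-fat diet livers and 44, 29 and 12 reads in normal diet livers.

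Cyp1a2, the hepatic P450 that handles caffeine and aromatic amines, had the lowest estimate of all members on the high-fat diet. It had 244, 360.5 and 172 CPM in high-fat diet livers and 689, 659.5 and 389.9 CPM in normal diet livers, a log2 fold change of -1.16 (SE 0.41) with an unadjusted p of 0.016 and an edgeR adjusted p of 0.911. The highest high-fat diet library, at 360.5 CPM, was just below the lowest normal diet library. Ahr, the receptor that drives Cyp1 genes, had a log2 fold change of 0.08 (SE 0.70). The debrisoquine-type P450 gene Cyp2d1 stood at -0.54 (SE 0.49), Cyp2d2 at -0.45 (SE 0.51) and Cyp2d4 at -0.93 (SE 0.47) on the log2 scale. All 3 had groups that did not overlap and lower counts on the high-fat diet, and their edgeR adjusted p-values were 0.915, 0.927 and 0.911. Fmo5 (-1.12, SE 0.64) and the vitamin D hydroxylase Cyp2r1 (-1.08, SE 0.67) also had low estimates, and their groups overlapped. Cyp2d1, Cyp2d4, Fmo5 and Cyp2r1 also had negative slopes on the mitochondrial read share that passed in the fit described below. Those of Cyp1a2 and Cyp2d2 did not pass. Cyp2e1 had an estimate of 0.14 (SE 0.35), with 2877, 2571 and 2099.7 CPM in high-fat diet livers and 2026, 2147 and 2675 CPM in normal diet livers, and these groups overlapped.

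The median log2 fold change over the 61 members was -0.02, beside 0.03 over all genes, with 29 members above 0 and 32 below. It was -0.34 for Cyp1, -0.18 for Cyp2, -0.40 for Cyp3, 0.70 for Fmo, 0.09 for Ces, 0.22 for Adh and 0.05 for Aldh genes, and the 3 other scalings of the libraries kept these signs. Over all 19 alternative fits the Cyp1, Fmo and Adh medians kept their signs, while the Ces median ran over -0.46 to 0.72 and the Aldh median over -0.23 to 0.20. The Cyp1 median lies midway between 2 genes of opposite sign, Cyp1a2 (-1.16) and Cyp1a1 (0.47), and the Adh median rests on 3 genes. The Ces median was -0.46 without high-fat diet replicate 1 and -0.14 without normal diet replicate 3, and with limma-voom it was -0.33 and the Aldh median -0.23. With the log2 mitochondrial share in the fit the Cyp2 and Cyp3 medians became 0.20 and 0.21, and without the 2 libraries above 40% they were 0.02 and 0.08. The member median ran from -0.17 without high-fat diet replicate 1 to 0.14 without high-fat diet replicate 3, and it was 0.03 without normal diet replicate 3, so its sign depended on single libraries. Without high-fat diet replicate 1 the count at an unadjusted p under 0.05 was 4 higher and 6 lower, where 20.6% of all genes were under that p. It was 5 and 2 without SCL replicate 2 (7.05% of all genes), 2 and 0 without high-fat diet replicate 3 (2.35%) or normal diet replicate 1 (2.21%), and 1 and 1 without normal diet replicate 2 (1.87%). It was 9 and 1 both with the mitochondrial share in the fit and without the 2 libraries above 40%, where 4% of all genes were under that p in each, and no member passed the adjusted threshold in either. The summed level of 7 markers of periportal hepatocytes was 1972 to 4622 CPM in high-fat diet livers and 5089 to 8205 CPM in normal diet livers, and that of 7 pericentral markers 494 to 637 CPM and 506 to 677 CPM in the same order of groups. The periportal sums of the groups did not overlap, nor did those of the 10 hepatocyte markers given above. No marker of these lists was at 0 in all libraries, and their part in the member values was not tested.

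The comparison of SCL with high-fat diet livers asks what the plant did in fatty liver, though the diet of the SCL rats is not given. No gene and no member passed in edgeR (0.0% of 12041 genes), and no member had an unadjusted p under 0.05, where 1.95% of all genes did (0.615% higher and 1.34% lower). DESeq2 called 0 members and 0.0083% of genes, limma-voom 0 of both, and at an unadjusted p under 0.05 they held 2 and 10 members, where they held 2.8% and 7.69% of genes. The groups did not overlap for 3 members (4.92%, against 4.78% of all genes), with Cyp2e1, Cyp2a1 and Aldh16a1 higher in SCL livers (2.36% of all genes) and 0 members lower (2.43% of all genes). The total share of members lies near that of all genes.

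Cyp2e1 had 3856, 3139 and 4409.9 CPM in SCL livers and 2877, 2571 and 2099.7 CPM in high-fat diet livers. Its lowest SCL library was above its highest high-fat diet library, with a log2 fold change of 0.60 (SE 0.35), an unadjusted p of 0.11 and an edgeR adjusted p of 1.00. Cyp2a1, a testosterone hydroxylase, had 1022, 947 and 1175 CPM in SCL livers against 782, 735 and 649.6 CPM in high-fat diet livers, a log2 fold change of 0.54 (SE 0.30). Aldh16a1 had a log2 fold change of 0.40 (SE 0.25). Adh4 (0.58, SE 0.38), Cyp3a18 (0.62, SE 0.45) and Fmo5 (0.69, SE 0.63) had high estimates with overlapping groups. The largest was that of Ces2i (1.60, SE 1.16), where SCL replicate 2 had 0 reads, which allows up to 0.291 CPM by a limit of 3 reads. The lowest was that of Aldh1l2, a mitochondrial folate enzyme, with 38.6, 8.54 and 30.5 CPM in SCL livers and 142, 30.4 and 25.3 CPM in high-fat diet livers, a log2 fold change of -1.35 (SE 0.71) and an unadjusted p of 0.084. That difference rests on high-fat diet replicate 1, which alone was above 38.6 CPM, the highest SCL value. Cyp1a2 stood at 0.44 (SE 0.40), Adh7 at -0.14 (SE 0.30), Aldh1a1 at 0.47 (SE 0.34) and Cyp3a23/3a1 at 0.36 (SE 0.35).

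The member median was 0.22, beside -0.03 over all genes, with 39 of 61 estimates above 0. Scaled by library totals alone, the median of all genes moved to -0.19 and that of the members to 0.04. The gap between members and all genes was thus 0.24 with library totals and 0.25 with the main scaling. Family medians were 0.16 for Cyp2, 0.34 for Cyp3, 0.29 for Ces, 0.47 for Adh and 0.19 for Aldh genes, while those of Cyp1 (0.01) and Fmo (0.10) turned negative with library totals (-0.05 and -0.10). Only the Cyp3 median was positive in all 19 alternative fits (0.09 to 0.69). Without SCL replicate 3 the Cyp2, Ces and Adh medians were -0.04, -0.16 and -0.04, and without high-fat diet replicate 3 the Aldh median was -0.01. Without SCL replicate 3 the member median was -0.04, and without SCL replicate 2 it was 0.42. The sign of the median thus turned with SCL replicate 3. At an unadjusted p under 0.05, 3 members (4.92%) were higher and 0 lower without SCL replicate 2, where 6.77% of all genes were under that p, and also without high-fat diet replicate 1 (4.51%). The count was 1 without SCL replicate 1 (2.63%) or high-fat diet replicate 3 (2.1%). It was 2, with 1 higher and 1 lower, on leaving out high-fat diet replicate 2 (4.02%). These shares of members, each with 1 library left out, are at or near those of all genes. With limma-voom, 10 of 61 members were higher and 0 lower, where 7.69% of all genes were under that p in either direction.

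SCL livers were also set against normal diet livers, which share no label of fatty liver with them. In edgeR 1 of 12041 genes (0.0083%), again Tm7sf2, and none of the 61 members passed, with 0.665 as the lowest adjusted p of a member. At an unadjusted p under 0.05, 5 members had a higher estimate (3.32% of all genes) and 0 a lower one (3.55% of all genes), in all 8.20% of members against 6.88% of all genes. DESeq2 and limma-voom each called the same 2 members, Aldh1a1 and Cyp3a23/3a1, as higher in SCL livers, where they called 0.332% and 1.26% of genes. At an unadjusted p under 0.05 they held 7 and 18 members, where they held 9.58% and 28.1% of genes. Groups did not overlap for 10 members (16.4%, against 15.3% of all genes), with 8 higher (7.47% of all genes) and 2 lower (7.81% of all genes) in SCL livers. The high-fat and normal diet libraries enter several of the comparisons, so their values are not independent of each other.

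Aldh1a1 had 582, 368 and 597 CPM in SCL livers and 153, 198 and 256 CPM in normal diet livers, with no overlap. Its log2 fold change was 1.35 (SE 0.35), a 2.55-fold higher level, with an adjusted p of 0.665 in edgeR, 0.035 in DESeq2 and 0.022 in limma-voom. Cyp3a23/3a1 had 2914, 1912 and 2047 CPM in SCL livers and 899, 991 and 1298 CPM in normal diet livers. Every SCL library was above every normal diet library, with a log2 fold change of 1.11 (SE 0.35), 2.16-fold, and adjusted p-values of 0.665 in edgeR, 0.049 in DESeq2 and 0.035 in limma-voom. Over the other edgeR fits, leave-one-out fits included, no adjusted p of either gene was under 0.329. On leaving out each library in turn, the edgeR estimate ran over 1.18 to 1.55 for Aldh1a1 and 0.89 to 1.27 for Cyp3a23/3a1. The high-fat diet libraries of both genes, 396, 258 and 462 CPM and 1378, 1926 and 2045 CPM, also lay above those of normal diet livers and overlapped the SCL libraries.

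Adh7 had 35.2, 36.6 and 45.4 CPM in SCL livers and 13.6, 24.0 and 20.3 CPM in normal diet livers, a log2 fold change of 1.02 (SE 0.31), and Cyp2f4 one of 0.99 (SE 0.34). Fmo1, a monooxygenase that oxidises soft nucleophiles, had 191, 155 and 134 CPM in SCL livers and 92.8, 117 and 102 CPM in normal diet livers, a log2 fold change of 0.62 (SE 0.26). None of these 3 pairs of groups overlapped, and none passed in edgeR (adjusted p = 0.665 each). Cyp2e1 (0.74, SE 0.35) and Aldh16a1 (0.50, SE 0.25) were also among the 8 members whose SCL libraries were all higher. The 2 whose SCL libraries were all lower were Cyp2d4 (-0.78, SE 0.47) and the fatty aldehyde dehydrogenase Aldh3a2 (-0.25, SE 0.27). Ephx1 had 1161, 446 and 2095 CPM in SCL livers and 648, 475 and 523 CPM in normal diet livers. SCL replicates 1 and 3 were above and replicate 2 below every normal diet library, and the log2 fold change was 1.17 (SE 0.60) with an unadjusted p of 0.076. The reductase Por stood at -0.37 (SE 0.28) on the log2 scale. Aldh1b1 had the largest estimate of all members (2.16), with overlapping groups of 127, 22 and 145 reads in SCL livers and 44, 29 and 12 reads in normal diet livers.

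The member median was 0.13 (0.03 over all genes), and with library totals alone it was -0.08 beside -0.21 over all genes. Medians of Fmo (0.60), Ces (0.53) and Adh genes (0.68) were positive and those of Cyp1 (-0.33) and Cyp2 genes (-0.16) negative under each scaling, while those of Cyp3 (0.07) and Aldh genes (0.10) turned negative with library totals (-0.13 and -0.13). Over all 19 alternative fits the Cyp1 median stayed negative and the Fmo (0.17 to 0.73) and Adh medians (0.17 to 0.97) stayed positive. The 2 Cyp1 estimates again had opposite signs, -0.72 for Cyp1a2 and 0.06 for Cyp1a1. The Ces median was -0.12 without SCL replicate 3 and 0.06 without SCL replicate 1, and the Adh median 0.17 without SCL replicate 3. The Cyp2 median turned positive in 5 of the 19 fits. Among these it was 0.20 without the 2 libraries above 40% mitochondrial, 0.33 with limma-voom and 0.26 without normal diet replicate 3. The member median was -0.04 without SCL replicate 3 and 0.32 without SCL replicate 2. At an unadjusted p under 0.05, 10 members were higher and 0 lower without SCL replicate 2. Without both libraries above 40% the count was 14 and 0, and without normal diet replicate 2 it was 3 and 0. Of all genes, 5.71, 7.02 and 2.32% were under that p in either direction, in the same order. Without high-fat diet replicate 1 the count was 7 higher and 1 lower, where 12.7% of all genes were under that p in either direction. With the mitochondrial share in the fit it was 15 higher and 1 lower, where 5.67% of all genes were under that p, and still no member passed the adjusted threshold. Sums of 4 marker lists did not overlap between these groups. The 3 erythroid markers summed to 167 to 499 CPM in SCL livers and 55.8 to 139 CPM in normal diet livers, and the 8 lymphocyte markers to 19.3 to 48.1 CPM and 7.26 to 16.9 CPM in the same order. Lower in SCL livers were the 7 periportal markers, at 3282 to 4718 CPM against 5089 to 8205 CPM in normal diet livers, and the 7 markers of stellate cells and fibroblasts, at 157 to 240.4 CPM against 247 to 483 CPM in normal diet livers. The 7 Kupffer cell markers all had estimates below 0 (median log2 fold change -0.37), while their sums overlapped, at 155 to 443 CPM in SCL livers and 304 to 441 CPM in normal diet livers. All 7 were also below 0 for the high-fat over the normal diet (median -0.61). The part of these marker lists in the member values was not tested.

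**Figure D3:**
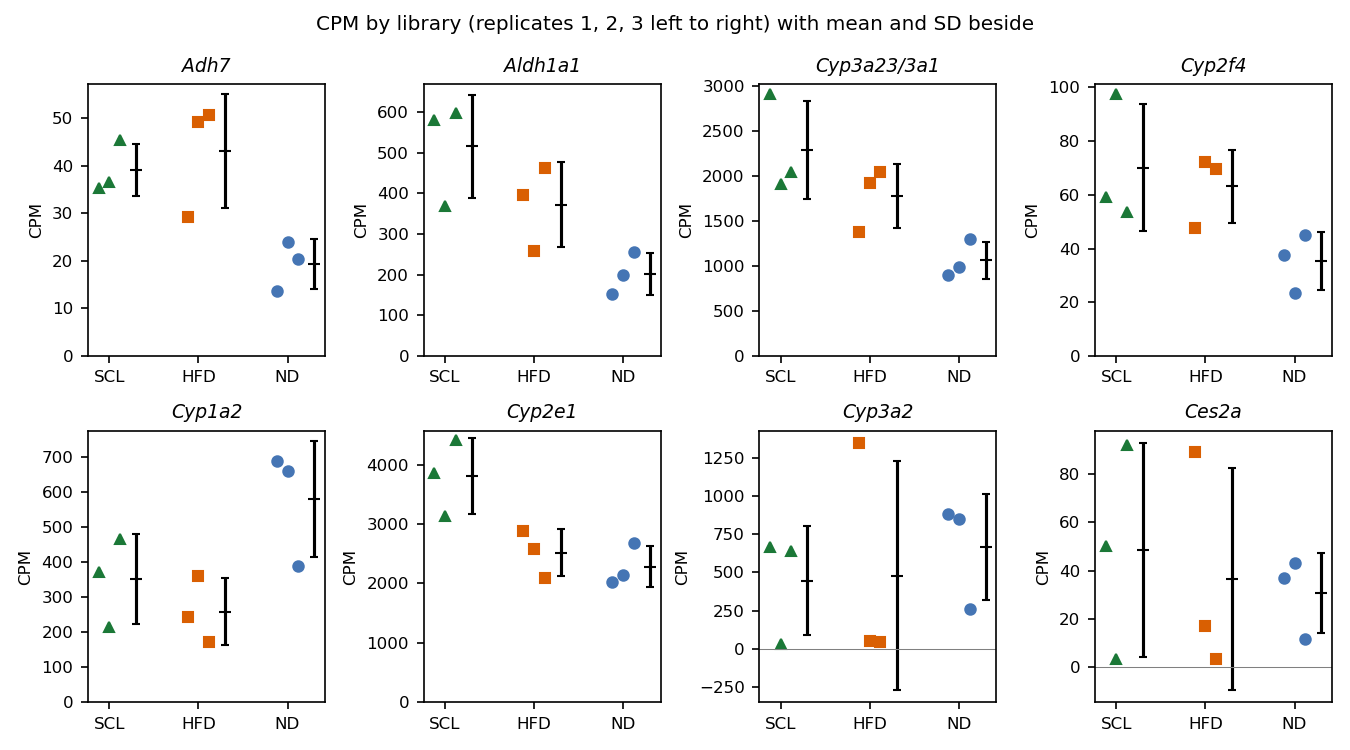
Normalised level in CPM of 8 members in each library, with SCL, high-fat diet (HFD) and normal diet (ND) livers left to right and the mean ± SD of 3 libraries beside the points. The top row shows members whose SCL and high-fat diet libraries were all above normal diet libraries, and the bottom row shows Cyp1a2, lower on the high-fat diet, Cyp2e1, and the widely scattered Cyp3a2 and Ces2a.

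**Figure D4:**
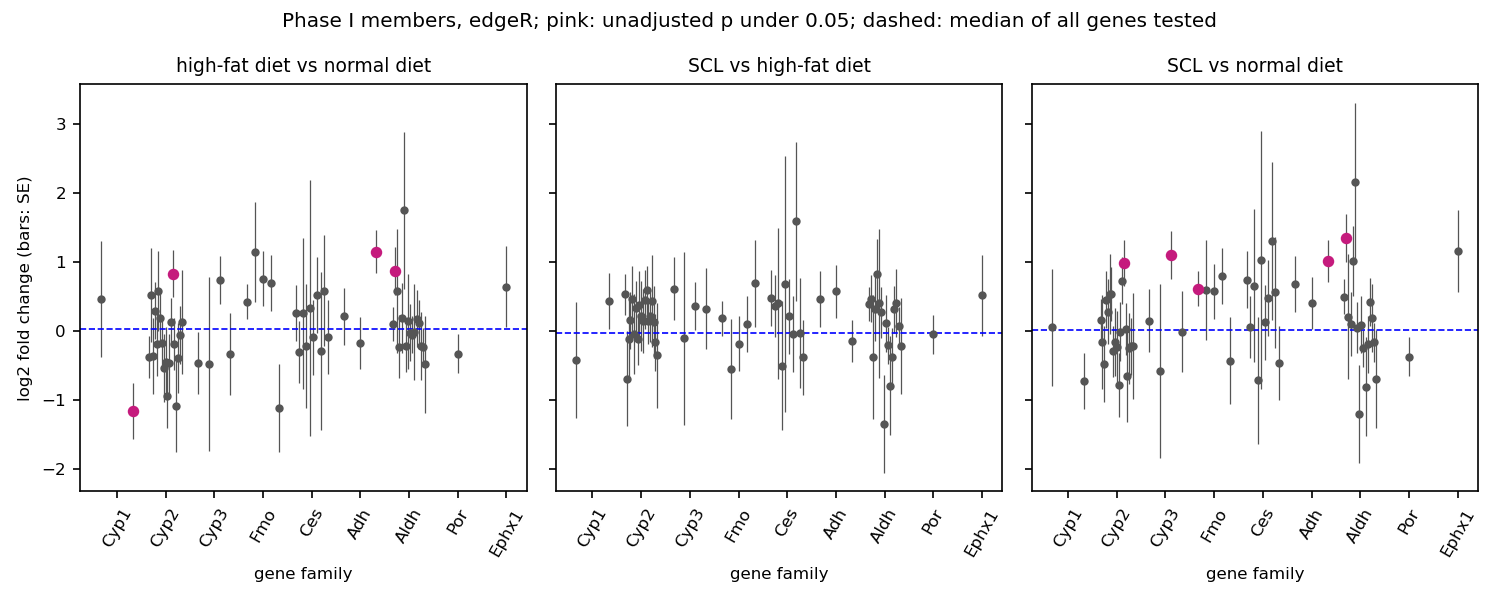
Log2 fold change with SE of the 61 members in the edgeR fit, by family, for the 3 comparisons; pink points have an unadjusted p under 0.05 and the dashed line is the median of all genes tested. Pink points number 4, 0 and 5 from left to right, and no member had an adjusted p under 0.05.

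In the authors' deposited table for the diet comparison, whose fold changes run normal over high-fat diet, no member had an adjusted p under 0.05 and the lowest was 0.205, for Adh7, among 53 genes under 0.05. The authors' deposited table for SCL over high-fat diet gave 1.00 as the lowest adjusted p of a member.

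Many of these genes varied widely over the 9 libraries, a spread that takes in differences between groups as well as within them. The ratio of the highest to the lowest CPM over the 9 libraries had a median of 3.88 over the members and 2.90 over all genes, leaving out 3 members and 355 genes with a library at 0. Cyp3a2 spanned 39.0-fold, with 667, 34.4 and 637 CPM in SCL livers, 1343, 51.7 and 42.8 CPM in high-fat diet livers and 881, 849.6 and 264 CPM in normal diet livers. It was low in SCL replicate 2, in high-fat diet replicates 2 and 3 and, less so, in normal diet replicate 3, so every group held high and low libraries. Cyp3a23/3a1, whose promoter resembles that of Cyp3a2 most among the windows shown, spanned 3.24-fold. In those 4 libraries it had 1912, 1926, 2045 and 1298 CPM, among its higher values on the high-fat and normal diets. Ces2a, a carboxylesterase of the group that in mouse also splits diacylglycerol, spanned 27.1-fold, with 50.3, 3.59 and 91.9 CPM in SCL livers, 89.2, 17.2 and 3.39 CPM in high-fat diet livers and 36.9, 43.3 and 11.8 CPM in normal diet livers. The steadiest members were Aldh3a2 (1.45-fold), Aldh8a1 (1.69-fold), Cyp2a1 (1.81-fold) and Por (1.85-fold).

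The members' levels were then set against the mitochondrial read share, in an edgeR fit with group means and a slope on the log2 share, which was added after the data were seen. Of 61 members, 25 (41.0%) had a slope with an adjusted p under 0.05, against 19.5% of all genes. They were 21 with a negative slope (10% of all genes, 1209 of 12041) and 4 with a positive one (9.49% of all genes). Cyp3a2 had a slope of -1.58 (SE 0.19, adjusted p = 0.00069) log2 CPM per unit of log2 share, and Ces2a one of -1.51 (SE 0.11, adjusted p = 0.00014). Of the Ces genes 6 of 10 passed, all negative, among them 5 of 7 Ces2 genes, for example Ces2j at -0.97 (SE 0.16, adjusted p = 0.0041). Of the Aldh genes 8 of 16 passed, 6 of them negative, such as Aldh9a1, an enzyme of carnitine synthesis, at -0.75 (SE 0.13, adjusted p = 0.0039). Of the P450 genes 8 of 25 passed, 7 of them negative, among them Cyp2c22 (-0.60, SE 0.13, adjusted p = 0.0092) and Cyp2d1 (-0.45, SE 0.12, adjusted p = 0.028). Ephx1 (-0.60, SE 0.12, adjusted p = 0.008) and Fmo5 (-0.67, SE 0.11, adjusted p = 0.0033) also had negative slopes. The 4 positive slopes were those of Aldh1a2 (0.89, SE 0.19, adjusted p = 0.010), Fmo2 (0.63, SE 0.17, adjusted p = 0.025), Aldh1a3 (0.41, SE 0.11, adjusted p = 0.025) and Cyp2f4 (0.27, SE 0.09, adjusted p = 0.047).

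None of the 3 Adh genes passed, and neither did Cyp2e1 (-0.10, SE 0.10, adjusted p = 0.50), Aldh1a1 (-0.03, SE 0.12, adjusted p = 0.88), Cyp3a23/3a1 (0.09, SE 0.11, adjusted p = 0.59) or Por (0.03, SE 0.10, adjusted p = 0.87). Cyp3a2 and Ces2a passed with any 1 library left out. Without the 2 libraries above 40%, 10 members passed (16.4%), against 15.4% of all genes, with Cyp3a2 at -1.77 (adjusted p = 0.017) and Ces2a at -1.25 (adjusted p = 0.0057) still passing and Ephx1 at -0.38 (adjusted p = 0.16) not. Leaving out high-fat diet replicate 1 left 14 members (23.0%, against 6.37% of all genes) and leaving out high-fat diet replicate 3 left 12 (19.7%, against 8.58%). Marker lists differed in how many genes had a slope that passed, where 19.5% of all genes did (10% negative and 9.49% positive). Periportal markers passed in 4 of 7, all negative, and pericentral markers in 0 of 6 tested. Hepatocyte markers passed in 2 of 10, both negative, a share near that of all genes. Cholangiocyte markers passed in 3 of 5 tested and erythroid markers in 2 of 3, all positive. Stellate cell and fibroblast markers passed in 3 of 7, 1 of them negative. Kupffer cell markers passed in 1 of 7, endothelial markers in 1 of 5, neutrophil markers in 1 of 3 and lymphocyte markers in 0 of 6 tested. The 10 hepatocyte markers summed to 87472 CPM in SCL replicate 2 and 83843 CPM in high-fat diet replicate 3, and to at least 161399.8 CPM in each other library. The 6 cholangiocyte markers summed to 22.7 to 69.0 CPM in SCL livers, 12.7 to 40.9 CPM in high-fat diet livers and 17.9 to 30.1 CPM in normal diet livers. What set the mitochondrial share, and the part of cell make-up or RNA quality in the slopes, was not tested.

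**Figure D5:**
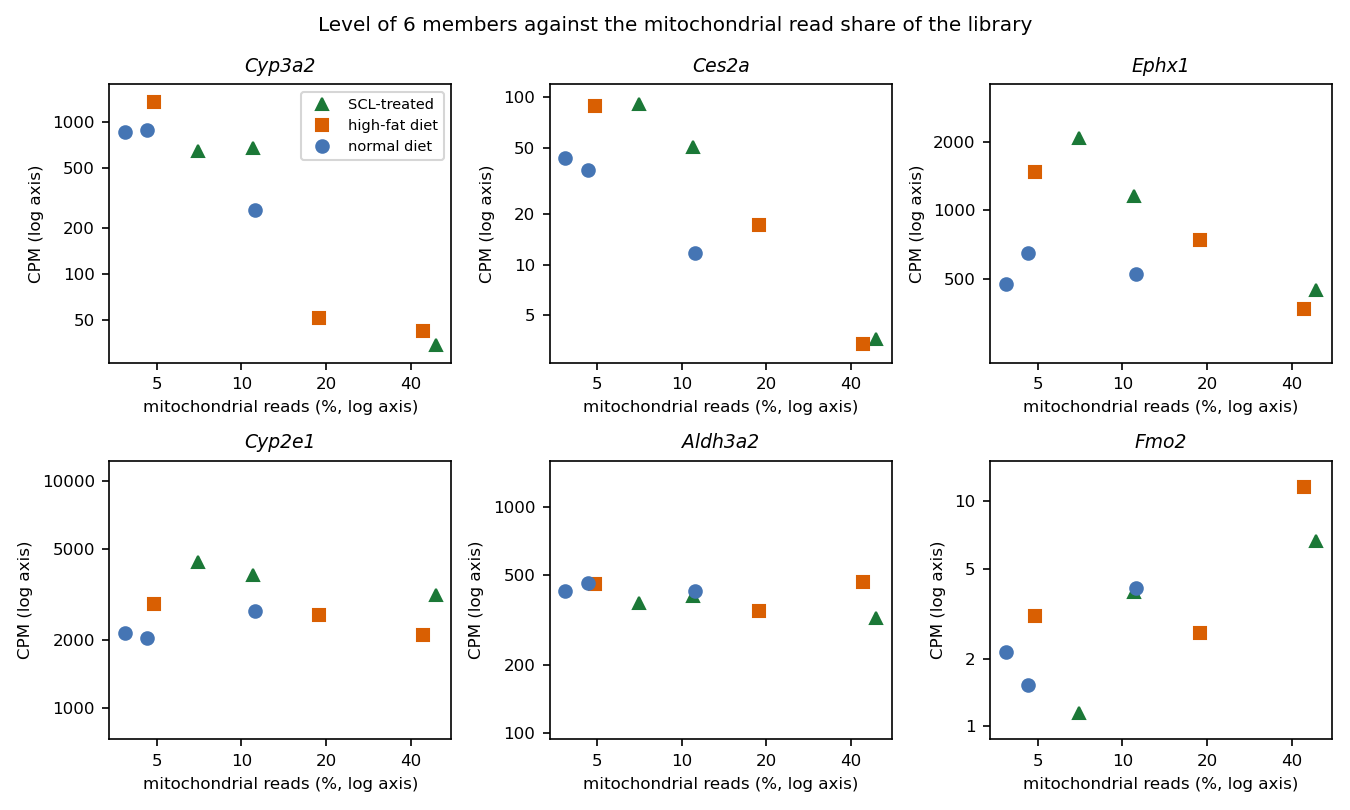
CPM of 6 members (log axis) against the share of reads from mitochondrial transcripts (percent, log axis), 1 point per library. Cyp3a2 and Ces2a are lowest in the 2 libraries above 40%, Ephx1 is lowest in high-fat diet replicate 3, Cyp2e1 and Aldh3a2 stay within 2.18-fold and 1.45-fold, and Fmo2 is highest in those 2 libraries.

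Of 11 listed regulators of phase I genes, 10 were tested and none passed in edgeR in any comparison. Rxra, the shared partner of PXR and CAR, had 36.5, 29.5 and 39.3 CPM in SCL livers, 196, 21.4 and 48.7 CPM in high-fat diet livers and 170.3, 138 and 38.8 CPM in normal diet livers. High-fat diet replicate 1 and normal diet replicates 1 and 2 were high and the other 6 libraries low, with a log2 fold change of -1.72 (SE 0.73) for SCL over normal diet (unadjusted p = 0.040, edgeR adjusted p = 0.665). The gene of PXR, Nr1i2, stood at 0.30 (SE 0.54) and that of CAR, Nr1i3, at 0.59 (SE 0.40) in SCL over normal diet livers. Hnf4a, which keeps the hepatocyte programme on, stood at -0.75 (SE 0.40) and Arnt, the partner of AhR, at -1.36 (SE 0.65). On the mitochondrial share 6 of the 10 had an edgeR slope that passed, where 19.5% of all genes did. The slope was positive for Ahr (0.69, SE 0.13, adjusted p = 0.0063), Nr1i2 (0.48, SE 0.12, adjusted p = 0.023) and Nr1i3 (0.39, SE 0.08, adjusted p = 0.0074). It was negative for Hnf4a (-0.33, SE 0.09, adjusted p = 0.031), Arnt (-0.56, SE 0.17, adjusted p = 0.043) and Cebpa (-0.34, SE 0.10, adjusted p = 0.041). Of 9 partner genes for electron transfer and heme synthesis, all were tested and none passed in a group comparison. On the mitochondrial share 1 of the 9, Cpox, had a slope that passed (-0.25, SE 0.08, adjusted p = 0.041), again beside 19.5% of all genes. Fech, which places iron into heme, had 64.0, 98.3 and 74.1 CPM in SCL livers, 68.8, 87.2 and 84.5 CPM in high-fat diet livers and 45.1, 47.7 and 54.2 CPM in normal diet livers. Its SCL and high-fat diet libraries were all above the normal diet libraries, with log2 fold changes of 0.68 (SE 0.25) for SCL and 0.71 (SE 0.25) for the high-fat diet over normal diet and edgeR adjusted p-values of 0.665 and 0.911. Alas1, the first enzyme of heme synthesis, stood at -0.03 (SE 0.30) and 0.15 (SE 0.30) in the same comparisons, and Cyb5a, which passes electrons to some P450 enzymes, at 0.64 (SE 0.40) and 0.33 (SE 0.40).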

How the data were processed

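Per the labels' protocols, Trizol was used for the liver RNA and a NEBNext Ultra kit for the libraries. The authors deposited read counts per gene and FPKM in a table of SCL and high-fat diet libraries and a table of normal and high-fat diet libraries, with the same high-fat diet values in both, and the log2 fold changes and p-values of their own comparisons. Their normalised columns, 12 in all, were not used. The submitters' processing notes name DESeq2 and the mouse build mm9 beside these rat samples, and no aligner, read counter or strand setting is given there, so no coordinates were taken from the tables. Genes were joined by symbol, and 60 of 61 members matched a RefSeq gene of assembly GRCr8.

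The counts as deposited were fitted over all 9 libraries by group with edgeR 4.0.16 (quasi-likelihood, TMM scaling, filterByExpr with a minimum count of 10, 12041 genes, 6 residual degrees of freedom) in R 4.3.3, with Benjamini-Hochberg adjustment over all genes tested and calls under 0.05. CPM values are scaled by TMM. Standard errors (SE) were taken as fold change over root F, on the log2 scale. DESeq2 1.42.0 and limma 3.58.1 (voom with quality weights) were alternatives, and scripts were tested on simulated data. Depth per library was 12413774 to 15521648 reads. Libraries of a group differed by more than sampling noise, so none was the same library sequenced again. Whether some were separate preparations from the same animal cannot be told from this. With 3 libraries against 3, an exact permutation test cannot go below p = 0.10, and none was used.

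The members and the lists of markers, regulators and partner genes were chosen with earlier results of these data known. Genes chosen by rule were, per family, the 3 with the highest mean FPKM and the member with the smallest p in each comparison. Added to these, over all members, were the 5 highest and 5 lowest fold changes, any member called, Por, Ephx1, and the regulators and partners. Of the members chosen by rule, Aldh1a7, Aldh5a1, Aldh6a1, Ces1d, Ces2h, Ces4a and Cyp2b2 are not described above. Other members (Aldh16a1, Aldh1a2, Aldh1a3, Aldh3a2, Aldh8a1, Ces2c, Ces2j, Cyp2c11, Cyp2c22, Cyp2c23 and Fmo4) and the gene Tm7sf2 were named after their values were seen. The values of 1 member are not reported here on their own.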

Additional observations from a re-analysis of the deposited data

How the results depend on the processing

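None of the 61 members was called by edgeR under any alternative tried: other scalings, no count filter, the 6 libraries compared alone, the mitochondrial share as a covariate, and fits without 1 or 2 libraries. DESeq2 and limma-voom each called 2 members in SCL over normal diet livers, and these 4 were the only changes of call among 2166 alternative values of the 38 members named by rule. In 151 of the 2166 the estimate turned sign, most often with the mitochondrial share as a covariate (24 of 114), with limma-voom (18 of 114) and without SCL replicate 3 (18 of 114), and none of these was called. Over all genes, those called on the high-fat over the normal diet numbered 1 in the reported fit, 50 with DESeq2, 26 with limma-voom, 2 with no count filter, and 0 with library totals, with the 6 libraries alone or without the 2 libraries above 40% mitochondrial, and 1 to 4 with a library left out. For SCL over high-fat diet they numbered 0, 1 with DESeq2, and 0 to 0 with a library left out. For SCL over normal diet they numbered 1, 40 with DESeq2, 152 with limma-voom, 0 with library totals or without the 2 libraries, and 0 to 1 with a library left out. The slope on the mitochondrial share was called for 25 members, 10 without the 2 libraries and 12 to 25 with a library left out. The causes were not tested. Depth limits Ces2e, Ces2i and Aldh1b1, each with a library at 0 reads.

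Same-numbered libraries of different groups had correlations of -0.43 to 0.65 in their deviations from the group means. Those of different number had correlations of -0.73 to 0.60. These values show no clear pairing by replicate number, and with 3 libraries a group they cannot exclude one. With the replicate block, edgeR called 0 members in each comparison and 1, 0 and 1 genes, and the member medians were -0.15 for the high-fat over the normal diet, 0.23 for SCL over the high-fat diet and 0.10 for SCL over the normal diet.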
